A study of Mus musculus with 8 samples.

Results

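The *Fgf* genes of ligands and the *Fgfr* genes of receptors were compared between the distal tip epithelium and the mesenchyme around it in the E12.5 mouse lung. The 10 genes were chosen by name, by a rule that uses no measured value, although earlier results of these data were known. They are the ligand genes *Fgf1*, *Fgf7*, *Fgf9*, *Fgf10* and *Fgf18* and the receptor genes *Fgfr1*, *Fgfr2*, *Fgfr3*, *Fgfr4* and *Fgfrl1*, and all 10 were among the 18996 genes analysed. The array held 47 spots for them, and the spot with the highest mean signal over the 8 samples stood for each gene, with the other spots as a check.

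Fibroblast growth factors are secreted proteins that bind receptor tyrosine kinases at the cell surface together with heparan sulfate, and the bound receptor activates the RAS-ERK and PI3K pathways. In the developing mouse lung the exchange runs between layers. FGF10 from the mesenchyme acts on the IIIb splice form of FGFR2 in the epithelium and is needed for the buds to form and grow out. FGF9, made by the mesothelium and the epithelium, acts on the IIIc forms of FGFR1 and FGFR2 in the mesenchyme.

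The data were 4 epithelium samples and 4 mesenchyme samples, labelled as E12.5 lungs of C57bl/6J mice, wild type in the study's own description and with no treatment, and according to the series description they came from 4 embryonic mice. The methods name C57BL/6 but the description of the series names BALb/c, so the strain is not settled. Distal tips were cut out with the surrounding mesenchyme and mesothelium and the layers were parted with dispase and needles, so the mesenchyme samples can also hold mesothelium, vessels and blood, whereas the labels call the material an organ homogenate. Each of the 4 arrays held 1 epithelium sample in Cy3 and 1 mesenchyme sample in Cy5 with no dye swap, and dye and tissue cannot be told apart.

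Values are log2 signals as the authors deposited them, after background correction and quantile normalization, and each difference has the epithelium mean first and the mesenchyme mean subtracted from it. Within a tissue, samples correlated over all genes with r between 0.995 and 0.997, and samples of different tissues with r between 0.964 and 0.968. All 8 epithelium markers passed the test towards the epithelium and all 10 mesenchyme markers towards the mesenchyme (as labelled). The epithelium markers summed to 99.0 to 99.6 in the epithelium samples and 57.9 to 62.7 in the mesenchyme samples. Mesenchyme 4 had *Krt8* at 12.25, against 8.95 to 9.42 in the other mesenchyme samples. The mesenchyme markers summed to 88.1 to 88.8 in the epithelium samples and 104.9 to 105.5 in the mesenchyme samples, and the tissues overlapped for *Twist1*. Summed over the list, the 6 endothelium markers lay at 29.8 to 32.4 in the epithelium samples, against 52.1 to 52.6 in the mesenchyme samples, and the 5 blood markers analysed at 37.7 to 38.6 in the epithelium samples and 56.0 to 56.5 in the mesenchyme samples, and every one of them passed the test towards the mesenchyme. Of the 6 smooth muscle markers, all but *Des* passed the test towards the epithelium, with sums of 68.4 to 69.2 in the epithelium samples and 54.0 to 55.2 in the mesenchyme samples, and so did all 5 neural markers analysed, with a mean per marker of 5.90 to 6.01 in the epithelium samples and 4.23 to 4.33 in the mesenchyme samples. The lowest gene signal of a sample lay between 1.35 and 1.70, so a marker signal above 0 does not show that its cell type was present. The part of these other cell types in the results was not tested.

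Genes were called at a Benjamini-Hochberg adjusted p under 0.05 from limma, fitted over all genes. Higher in the epithelium were 5 of the 10 genes, namely *Fgf1*, *Fgfr2*, *Fgfr3*, *Fgfr4* and *Fgfrl1*, and higher in the mesenchyme were 3, namely *Fgf9*, *Fgf10* and *Fgf18*. *Fgf7* and *Fgfr1* did not pass. Over all genes, 21.2% passed towards the epithelium and 24.8% towards the mesenchyme, 45.9% in all, so that a call was common on these arrays. A difference of at least 1 on the log2 scale was met by 2 of the genes towards the epithelium (*Fgfr2* and *Fgfr4*) and by 2 towards the mesenchyme (*Fgf9* and *Fgf10*), against 6.69% and 7.24% of all genes, 13.9% in all. The 4 called receptor genes all lay towards the epithelium, with a median difference of 0.95 over the 5 receptor genes, and the median over the 5 ligand genes was -0.40, beside -0.03 over all genes.

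**Figure D1:**
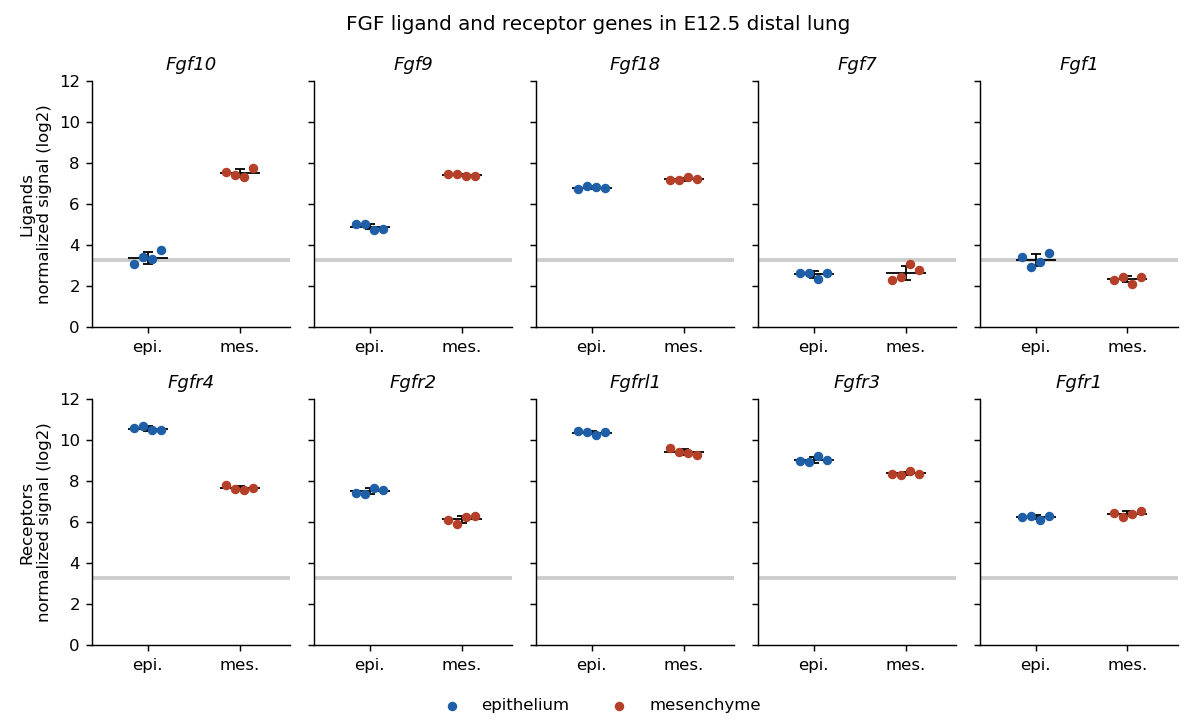
Log2 signal (vertical axis) of each of the 10 genes in the 4 epithelium and 4 mesenchyme samples, drawn as points, with the mean and SD of each tissue and a grey band at the level below which the dimmest 30% of genes lay. *Fgf10* and *Fgf9* lie higher in every mesenchyme sample, *Fgfr4* and *Fgfr2* higher in every epithelium sample, and the tissues overlap for *Fgf7* and *Fgfr1*.

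The start regions of the 4 genes with the largest differences, from 250 bases before to 50 after the start in RefSeq (GRCm38.p6), are given to show the sequence around an annotated start of the genes that lay furthest apart between the tissues. The start taken for *Fgf9* lies inside the span of the gene as annotated, downstream of its first base, and the other 3 regions span the first base of the annotated gene. They are those of *Fgf10* (chr13:118714449-118714748, plus strand), *Fgf9* (chr14:58072436-58072735, plus strand), *Fgfr4* (chr13:55152568-55152867, plus strand) and *Fgfr2* (chr7:130266759-130267058, minus strand). Capitals mark every match, on either strand, to 6 short motifs, which were TATAAA (bound by TBP), GGGCGG (GC box), CCAAT (bound by NF-Y), CCGGAA (ETS), AGGTGT (T-box) and TGTTTAC (forkhead).
*Fgf10*: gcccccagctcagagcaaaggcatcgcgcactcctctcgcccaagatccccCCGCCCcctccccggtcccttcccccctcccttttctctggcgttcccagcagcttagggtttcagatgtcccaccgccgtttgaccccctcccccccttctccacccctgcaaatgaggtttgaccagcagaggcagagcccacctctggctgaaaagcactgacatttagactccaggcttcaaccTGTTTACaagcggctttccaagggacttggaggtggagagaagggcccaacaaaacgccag
*Fgf9*: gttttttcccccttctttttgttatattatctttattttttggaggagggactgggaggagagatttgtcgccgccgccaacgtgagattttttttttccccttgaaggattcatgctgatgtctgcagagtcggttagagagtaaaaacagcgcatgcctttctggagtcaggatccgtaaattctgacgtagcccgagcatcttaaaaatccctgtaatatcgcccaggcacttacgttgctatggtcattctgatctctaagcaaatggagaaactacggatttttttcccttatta
*Fgfr4*: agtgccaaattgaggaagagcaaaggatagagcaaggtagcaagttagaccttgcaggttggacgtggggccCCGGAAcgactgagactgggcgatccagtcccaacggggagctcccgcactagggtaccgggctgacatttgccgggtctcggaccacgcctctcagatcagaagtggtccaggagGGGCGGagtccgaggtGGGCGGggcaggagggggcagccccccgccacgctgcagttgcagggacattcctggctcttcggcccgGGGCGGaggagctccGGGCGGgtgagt
*Fgfr2*: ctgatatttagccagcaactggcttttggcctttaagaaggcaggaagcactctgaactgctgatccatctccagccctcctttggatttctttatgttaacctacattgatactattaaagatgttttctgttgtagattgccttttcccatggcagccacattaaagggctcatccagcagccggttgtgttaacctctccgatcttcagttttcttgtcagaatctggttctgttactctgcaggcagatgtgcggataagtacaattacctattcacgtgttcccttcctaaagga

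The *Fgf10* region held 1 GC box and 1 forkhead motif. The *Fgfr4* region held 4 GC boxes and 1 ETS motif, and those of *Fgf9* and *Fgfr2* held none of the 6 motifs. No matches overlapped in these regions. Among 32841 mouse start regions of the same length, 35.7% held the GC box, 14.9% the ETS motif, 3.65% the forkhead motif, 37.4% the NF-Y motif, 13.6% the TBP motif and 13.7% the T-box motif. The bases G and C made up 60.7% of the *Fgf10* region, 42.7% of that of *Fgf9*, 65.3% of that of *Fgfr4* and 43.7% of that of *Fgfr2*, where the median over all regions was 52.7%. A match to such short letters is a description of the sequence, and the arrays did not measure binding.

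Among the ligands, *Fgf10* differed most. *Fgf10* (chr13:118714699-118792573, GRCm38.p6) encodes the mesenchymal ligand of FGFR2b whose loss in mice leaves no lung. Its signals were 3.08, 3.40, 3.30 and 3.77 in the epithelium samples, against 7.58, 7.40, 7.33 and 7.77 in the mesenchyme samples. Every mesenchyme sample lay above every epithelium sample, and the gap was many times the spread in either tissue. The means were 3.39 ± 0.29 in the epithelium and 7.52 ± 0.20 in the mesenchyme (SD, n = 4 each), a difference of -4.13 (SE 0.16, 95% interval -4.48 to -3.77, limma adjusted p = 6.2e-08), or 17.5-fold lower in the epithelium. By size it was at rank 42 of 18996 genes towards the mesenchyme. On the 4 arrays the difference was -4.50, -4.00, -4.02 and -4.00.

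The array carried 10 spots for *Fgf10*, and all 10 lay towards the mesenchyme, with differences from -4.56 to -3.96. Spots of a gene were read on the same samples. They are repeat measurements and not further samples, here and for the genes below. The epithelium signals of *Fgf10* sat close to 3.26, the level below which the dimmest 30% of genes lay in that tissue, and there the background limits how large a difference can be read. Detection calls were not used here, so a low level of *Fgf10* in the epithelium was not told apart from none. In bulk samples, fewer cells of a type and less RNA per cell cannot be told apart, for this gene and for all others here.

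*Fgf9* (chr14:58070671-58112854) encodes the ligand known from the mouse mesothelium and epithelium that keeps the mesenchyme growing. It stood at 5.02, 5.01, 4.76 and 4.80 in the epithelium samples, against 7.45, 7.45, 7.35 and 7.33 in the mesenchyme samples. The tissues did not overlap, and the samples of each tissue lay within a narrow band. The means were 4.90 ± 0.14 in the epithelium and 7.39 ± 0.06 in the mesenchyme (SD, n = 4 each), a difference of -2.50 (SE 0.08, 95% interval -2.67 to -2.32, limma adjusted p = 1.97e-08), or 5.64-fold lower in the epithelium. The other *Fgf9* spot gave means of 3.27 in the epithelium and 6.43 in the mesenchyme, a difference of -3.15.

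Markers of the mesothelium were split, with most of them on the side of *Fgf9* and *Fgf10*. Of the 6 mesothelium markers, 4 passed the test towards the mesenchyme, with differences of -4.03 for *Wt1*, -4.07 for *Upk3b*, -3.93 for *Lrrn4* and -3.29 for *Upk1b*, whereas *Msln* (2.44) and *Krt19* (1.71) passed towards the epithelium. Their summed signal was 30.8 to 31.5 in the epithelium samples and 42.1 to 42.4 in the mesenchyme samples. The share of the *Fgf9* signal that came from mesothelium in the mesenchyme samples was not tested.

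*Fgf18* (chr11:33116970-33147400) encodes a ligand of the FGF8 subfamily, known in mice for its roles in cartilage, bone and the later lung. It had 6.73, 6.89, 6.80 and 6.76 in the epithelium samples, against 7.15, 7.15, 7.30 and 7.20 in the mesenchyme samples, with no overlap. The tissues averaged 6.80 ± 0.07 in the epithelium and 7.20 ± 0.07 in the mesenchyme (SD, n = 4 each). The difference of -0.40 (SE 0.06, 95% interval -0.54 to -0.26, limma adjusted p = 0.000623) was 1.32-fold. It rested on 1 spot and was far smaller than those of *Fgf9* and *Fgf10*, although it held on all 4 arrays, from -0.50 to -0.25.

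*Fgf1* (chr18:38838672-38929470), which encodes a ligand able to bind every signaling FGF receptor and which lacks a classical signal peptide, was the one ligand gene called towards the epithelium. Its signals were 3.40, 2.92, 3.19 and 3.63 in the epithelium samples, against 2.31, 2.47, 2.13 and 2.43 in the mesenchyme samples. The epithelium samples were all higher, and as for *Fgf10* they varied widely among themselves. With means of 3.29 ± 0.30 in the epithelium and 2.33 ± 0.15 in the mesenchyme (SD, n = 4 each), the difference was 0.95 (SE 0.15, 95% interval 0.61 to 1.30, limma adjusted p = 0.000795), or 1.94-fold. The mesenchyme signals were below the level of the dimmest 30% of genes and the epithelium signals close to it. The other *Fgf1* spot differed by 0.13 (adjusted p = 0.569 in the limma fit over all spots), so the call depended on the spot.

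*Fgf7* (chr2:126034658-126091185) encodes the keratinocyte growth factor, which like FGF10 acts through FGFR2b. It had 2.63, 2.65, 2.34 and 2.65 in the epithelium samples, against 2.31, 2.47, 3.06 and 2.81 in the mesenchyme samples. The tissues overlapped, and 2 arrays had the higher signal in each tissue. The difference was -0.09 (SE 0.16, 95% interval -0.47 to 0.28, limma adjusted p = 0.697). *Fgf7* was the only one of the 10 genes among the dimmest 30% in both tissues.

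Among the receptors, *Fgfr4* differed most. *Fgfr4* (chr13:55152818-55168759) encodes the receptor that serves FGF19-type hormones in the liver and that acts together with FGFR3 in the mouse alveolus. It had 10.55, 10.69, 10.47 and 10.47 in the epithelium samples, against 7.82, 7.61, 7.55 and 7.63 in the mesenchyme samples. No sample of either tissue came near the other tissue. The means were 10.54 ± 0.10 in the epithelium and 7.65 ± 0.11 in the mesenchyme (SD, n = 4 each), a difference of 2.89 (SE 0.08, 95% interval 2.71 to 3.07, limma adjusted p = 9.63e-09), or 7.42-fold. Its other 2 spots lay in the same direction with smaller differences of 1.77 and 0.94. *Fgfr4* was at rank 258 of all genes towards the epithelium.

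*Fgfr2* (chr7:130162451-130266808) encodes the receptor for FGF10 and FGF7 in its IIIb form and for FGF9 and FGF18 in its IIIc form. Its signals were 7.39, 7.37, 7.67 and 7.55 in the epithelium samples, against 6.08, 5.93, 6.23 and 6.29 in the mesenchyme samples. All epithelium samples were higher, and arrays 3 and 4 had the higher signals in both tissues. The means were 7.49 ± 0.14 in the epithelium and 6.13 ± 0.16 in the mesenchyme (SD, n = 4 each), which gave a difference of 1.36 (SE 0.10, 95% interval 1.13 to 1.60, limma adjusted p = 5.72e-06), or 2.57-fold. All 11 *Fgfr2* spots lay towards the epithelium, from 1.26 to 1.49. The place of each spot within the transcript is not given in the sources used here, so the values stand for *Fgfr2* as a whole and not for the IIIb or IIIc form.

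*Fgfrl1* (chr5:108694229-108706950) encodes a receptor that binds FGFs but has no kinase domain, and mice without it have a thin diaphragm. It had 10.41, 10.39, 10.23 and 10.37 in the epithelium samples, against 9.60, 9.39, 9.36 and 9.26 in the mesenchyme samples, again without overlap. The means were 10.35 ± 0.08 in the epithelium and 9.40 ± 0.14 in the mesenchyme (SD, n = 4 each), a difference of 0.95 (SE 0.08, 95% interval 0.76 to 1.14, limma adjusted p = 1.61e-05), or 1.93-fold, from 1 spot.

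*Fgfr3* (chr5:33721724-33737068) encodes the receptor best known as a brake on growth of cartilage. In the epithelium samples it had 8.96, 8.91, 9.21 and 9.00, and in the mesenchyme samples 8.35, 8.28, 8.49 and 8.35. Every epithelium sample was higher, although by less than for the receptor genes above. The means of 9.02 ± 0.13 in the epithelium and 8.37 ± 0.09 in the mesenchyme (SD, n = 4 each) differed by 0.65 (SE 0.08, 95% interval 0.47 to 0.84, limma adjusted p = 0.000167), or 1.57-fold. All 3 *Fgfr3* spots were called towards the epithelium, with differences from 0.54 to 0.97.

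*Fgfr1* (chr8:25518759-25575718), whose IIIc form is a receptor of FGF9 in the mouse lung mesenchyme, did not pass. It had 6.24, 6.31, 6.12 and 6.29 in the epithelium samples, against 6.43, 6.26, 6.38 and 6.53 in the mesenchyme samples. The tissues overlapped through the second array, and the mesenchyme was higher on 3 of 4 arrays. The difference was -0.16 (SE 0.07, 95% interval -0.33 to 0.01, limma adjusted p = 0.115). The 13 *Fgfr1* spots ranged from -0.54 to 0.04, and 3 of them passed towards the mesenchyme in the fit over all spots, where 41.4% of spots passed in either direction. The interval leaves room for a small excess in the mesenchyme, so similar levels were not shown.

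**Figure D2:**
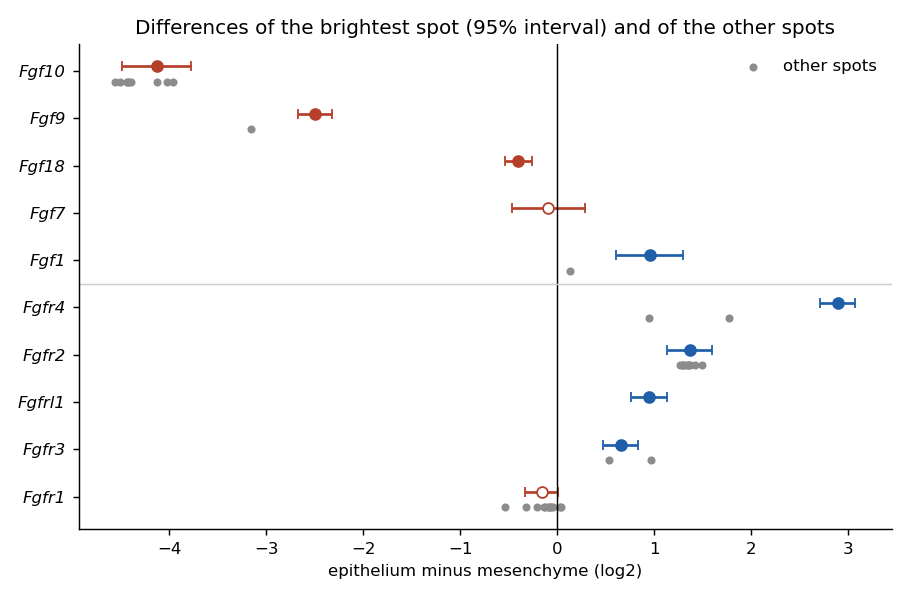
Difference in log2 signal, epithelium minus mesenchyme (horizontal axis), for the 10 genes, with the 95% interval of the limma fit for the brightest spot (filled where the test was passed, open where it was not) and smaller grey marks for the other spots of the gene. All spots of *Fgf10*, *Fgf9*, *Fgfr2*, *Fgfr3* and *Fgfr4* lie on one side of 0, and most spots of *Fgfr1* lie below 0, down to -0.54, with the highest at 0.04.

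The 8 called genes were also the 8 whose tissues did not overlap, 5 towards the epithelium and 3 towards the mesenchyme, where 20.3% and 24.0% of all genes did so, 44.3% in all. For each of them an exact 2-sided permutation test of the difference in means, over 70 arrangements of the samples, gave p = 0.0286. This is the smallest that 4 unpaired samples against 4 can give, and it follows from the lack of overlap and adds nothing to it. The test took the samples as unpaired, although the arrays pair them. The same exact test gave p = 0.0857 for *Fgfr1* and p = 0.714 for *Fgf7*.

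**Figure D3:**
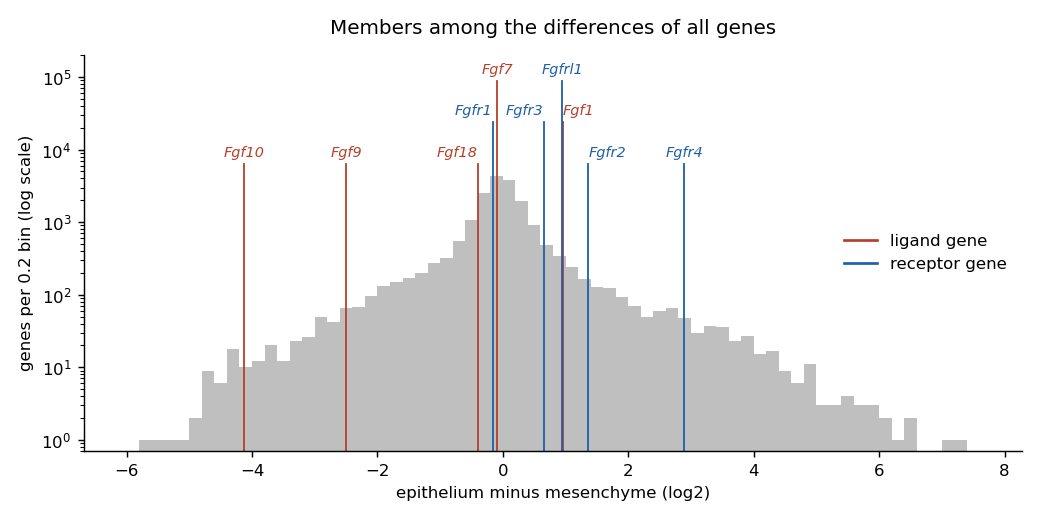
Number of genes (vertical axis, log scale) by difference in log2 signal, epithelium minus mesenchyme (horizontal axis, bins of 0.2), over all 18996 genes in grey, with lines at the values of the 10 genes. *Fgf10* at -4.13 and *Fgfr4* at 2.89 stand in the tails, and *Fgf7* and *Fgfr1* stand in the centre.

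The other genes of the pathway were taken from lists by function and described by their counts. Of 86 genes listed, 76 were analysed, and 20 passed towards the epithelium, 21 towards the mesenchyme and 35 in neither direction, with a median difference of 0.0034. Over all genes, 21.2% passed towards the epithelium and 24.8% towards the mesenchyme. A difference of at least 1 was met by 10 of the 76 towards the epithelium and 8 towards the mesenchyme. Over all genes this was met by 6.69% and 7.24%. Within the lists single genes reached far larger differences.

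Among other secreted ligands, 12 of 13 were analysed, and 10 of the 12 were among the dimmest 30% in both tissues. *Fgf5*, whose product ends the growth phase of hair in mice, was the one ligand called towards the mesenchyme. It had 4.77, 4.43, 4.42 and 4.77 in the epithelium samples, against 7.73, 7.69, 7.41 and 7.79 in the mesenchyme samples, a difference of -3.06 (SE 0.12, limma adjusted p = 7.63e-08). *Fgf22*, a relative of *Fgf7* and *Fgf10*, was called towards the epithelium by 0.56 (SE 0.09), but was dim in both tissues. The list's median was -0.0021. All 4 homologous factors that stay in the cell and act on sodium channels were analysed, and *Fgf13* was higher in the epithelium by 1.88 (SE 0.10) and *Fgf12* lower by -0.53 (SE 0.17, limma adjusted p = 0.0345), with a median of 0.11. The other *Fgf13* spots gave smaller differences, down to 0.36, and the mean over all its spots gave 1.04. The *Fgf12* call was lost when any of 4 samples was left out (epithelium 4 and mesenchyme 1, 2 and 4), with limma adjusted p between 0.0256 and 0.0846 over the 8 omissions, and it was also lost with the array as a block (adjusted p = 0.0533).

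Genes of co-receptors and carriers were called 7 times towards the epithelium and 5 times towards the mesenchyme among 16 analysed of 17. The shares of all genes were 21.2% and 24.8%. The list's median was 0.26. The largest difference was that of *Fgfbp1*, whose product releases FGFs from the matrix, with means of 6.72 in the epithelium and 3.37 in the mesenchyme and a difference of 3.35 (SE 0.15). The heparan sulfate core protein genes *Sdc4* (2.12, SE 0.06), *Gpc1* (1.18, SE 0.05) and *Gpc4* (1.05, SE 0.06) followed towards the epithelium. The core protein genes split between the tissues, and those named here beyond the 4 largest differences were named after their values were seen. *Sdc1* was also called towards the epithelium (0.87), whereas *Sdc2* (-1.03), *Gpc3* (-0.83), *Gpc6* (-0.32) and *Sdc3* (-0.27) were called towards the mesenchyme. However, another *Gpc6* spot gave 0.18 and another *Sdc3* spot 0.04. With the mean over all spots, the calls of the whole list numbered 7 towards the epithelium and 3 towards the mesenchyme.

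Among enzymes of heparan sulfate, 3 passed towards each tissue of 11 analysed of 12, with a median of 0.00013. Of all genes, 21.2% passed towards the epithelium and 24.8% towards the mesenchyme. *Sulf1*, which encodes a sulfatase that removes 6-O-sulfate, was lower in the epithelium by -1.98 (SE 0.05), with means of 9.10 in the epithelium and 11.08 in the mesenchyme. Its relative *Sulf2*, named after its values were seen, was called the other way at 1.18 (SE 0.09). The *Sulf2* means were 11.85 in the epithelium and 10.67 in the mesenchyme. The 6-O-sulfotransferase genes went opposite ways, with *Hs6st1* at 1.63 (SE 0.11) and *Hs6st2* at -1.99 (SE 0.07), although another *Hs6st2* spot gave 0.69. *Hs3st1*, which encodes a 3-O-sulfotransferase, was at -1.25 (SE 0.07).

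Inside the cell the differences of the brightest spots were small. Of 22 adaptor and kinase genes, 16 were analysed, with a median of -0.08. Towards the epithelium 2 passed and towards the mesenchyme 5, beside 21.2% and 24.8% of all genes. With the array as a block these counts were 4 and 7, and with the mean over all spots 3 and 3. The largest differences of the brightest spots were *Shc1* at -0.60 (SE 0.11), *Nras* at 0.51 (SE 0.09), *Gab1* at -0.48 (SE 0.05) and *Sos1* at 0.38 (SE 0.11). For *Gab1*, which encodes a docking protein, another spot gave 1.71. *Pik3r1* (-0.17) and *Braf* (0.12), named after their values were seen, had other spots at up to 0.75 and 0.65. The *Sos1* call was lost when any of 5 samples was left out (epithelium 2 and 3 and mesenchyme 1, 2 and 4), with limma adjusted p between 0.00448 and 0.0662 over the 8 omissions.

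Genes that FGF signaling is known to induce, most of them feedback inhibitors, did not move together. Of 13, 12 were analysed, with a median of -0.13. Towards the epithelium 4 passed and towards the mesenchyme 5, beside 21.2% and 24.8% of all genes. *Etv5*, an ETS factor known as a target of FGF10 in the lung bud, had means of 9.37 in the epithelium and 6.21 in the mesenchyme, a difference of 3.17 (SE 0.06, limma adjusted p = 2.12e-09). Its relative *Etv1* lay the other way at -1.90 (SE 0.09), and so did *Dusp6*, which encodes an ERK phosphatase, at -1.30 (SE 0.08). *Spry4*, a Sprouty inhibitor gene, was at -1.10 (SE 0.20), but was dim in both tissues and its other spot gave -0.33. The brighter Sprouty genes, named after their values were seen, lay the other way, with *Spry1* at 0.92 (SE 0.06) and *Spry2* at means of 9.87 in the epithelium and 8.87 in the mesenchyme, although another *Spry2* spot gave -0.05. *Etv4*, named after its values were seen because it is often paired with *Etv5*, was at -0.51 (SE 0.07), on the other side of 0 from *Etv5*.

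The IIIb exon of *Fgfr2* is favoured by the splicing factors ESRP1 and ESRP2, which are found in epithelia. *Esrp1* had means of 8.63 in the epithelium and 3.48 in the mesenchyme, a difference of 5.15 (SE 0.15, limma adjusted p = 1.62e-08), and *Esrp2* had 10.68 in the epithelium and 5.89 in the mesenchyme, a difference of 4.79 (SE 0.09, limma adjusted p = 2.53e-09). Among regulators that act on the same exon choice, *Rbfox2* was lower in the epithelium by -0.36 (SE 0.06), although its other spot gave 0.14. *Ptbp1* at 0.14 (limma adjusted p = 0.0988) and *Ptbp2* at 0.23 (limma adjusted p = 0.0639) did not pass. With the array as a block, which pairs the samples, both passed (limma adjusted p = 0.0219 for *Ptbp1* and 0.00301 for *Ptbp2*). Of these 5 genes, 2 passed towards the epithelium and 1 towards the mesenchyme, or 4 and 1 with the block, with a median of 0.23. Without the block, 21.2% and 24.8% of all genes did so. The exon used in *Fgfr2* was not measured.

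**Figure D4:**
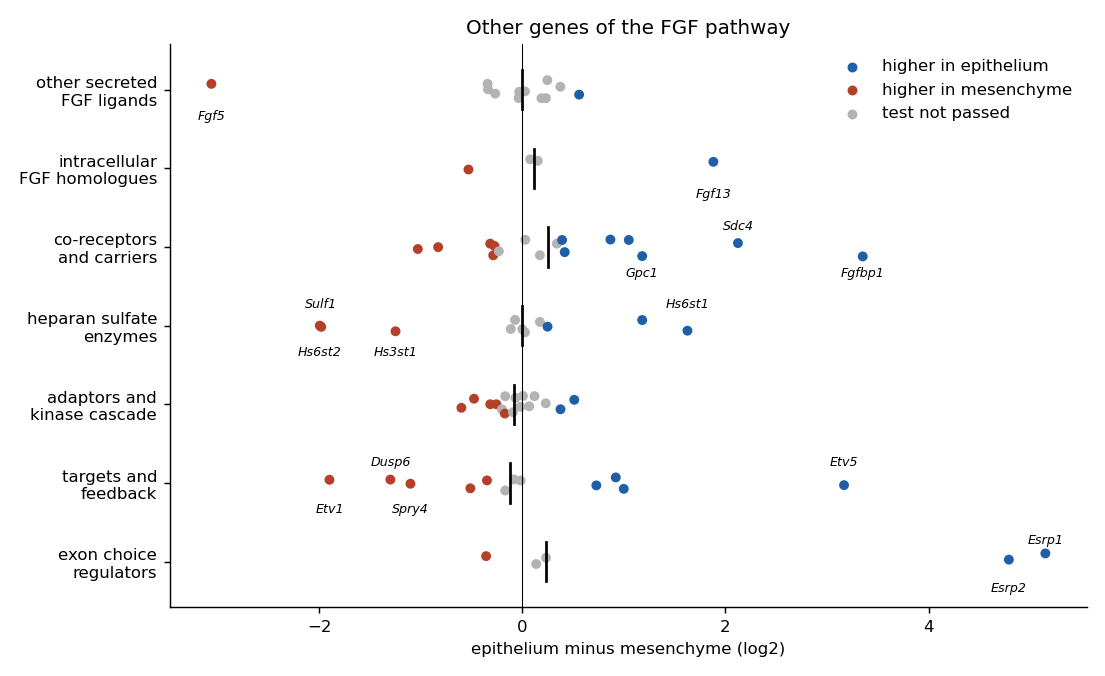
Difference in log2 signal, epithelium minus mesenchyme (horizontal axis), of each analysed gene of the FGF pathway, in a row per list, with genes that passed the test drawn in the colour of the tissue where they were higher and the others in grey. Short bars mark the list medians. *Esrp1* and *Esrp2* at 5.15 and 4.79 lie furthest towards the epithelium, and *Fgf5* at -3.06 furthest towards the mesenchyme.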

How the data were processed

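RNA of 4 epithelium and 4 mesenchyme samples was hybridised to 4 Agilent arrays of 2 colours, as the labels give them, whereas the study's text gives 3 samples for this comparison. According to the methods, the authors took mean spot signals, subtracted background with normexp against the negative controls (offset 1), log-transformed and quantile-normalized them in limma. The deposited values were read as log2 signals from their range, since the base is not stated. The methods describe Cy3 alone, whereas the labels give both dyes. The number of arrays limits the precision. The p-values reflect only how these samples vary, part of which may be technical.

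Of 45220 features, 523 had a missing value on any array and were left out. Among all features, 33653 had 1 gene name in the platform annotation, of which 33517 matched RefSeq (GRCm38.p6). Those without a match kept their name. The fit over all spots used 33325 spots with 1 gene name. According to the methods, the authors averaged replicate spots on each array before the brightest probe was taken. Here replicate spots stood as separate rows. The brightest spot stood for each of 18996 genes. The unpaired comparison used limma 3.58.1 (lmFit, eBayes) under R 4.3.3, with Benjamini-Hochberg adjustment over all genes, after the fit had been tested on simulated data. Exact permutation tests used scipy 1.17.1, tables pandas 2.3.3 and plots matplotlib 3.10.9 in Python 3.11.15. The dimmest 30% of genes were taken per tissue from its mean signals.

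Every one of the 10 genes was named, and of each pathway list up to 4 genes with the largest differences among those called, the exon choice regulators in full, and the 3 genes nearest to *Fgf10* and to *Fgfr2*. The rule for the 10 genes used no measured value, but genes and lists were chosen with earlier results of these data known. Alternatives were the array as a block, a trended and robust fit, other spots, other scalings, leaving out dim genes and leaving out each sample. By the labels, equal numbers mark samples hybridised together, and their deviations from the tissue means correlated over genes with r between 0.35 and 0.62, against -0.04 at most with another array, so the numbers pair the samples.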

Additional observations from a re-analysis of the deposited data

Results flagged for a closer look

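In the 20 groups of 4 values, which are the 10 genes in each tissue, 1 had a sample far from the others. This was *Fgf7* in the epithelium, where the third sample had a log2 signal of 2.34 and the other 3 had 2.63 to 2.65, so that the gap took 0.954 of the whole range, above the 95% limit of Dixon's test. Chance gives about 1 such group in 20. The gene was dim in both tissues.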

How the results depend on the processing

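Of the 8 genes called, all but *Fgf1* kept their call and direction under all 15 alternatives. With the brightest spot chosen in the tissue of the lower signal, *Fgf1* was at 0.13 (limma adjusted p = 0.56, range 0.000269 to 0.56 over its alternatives). With the mean over all spots, *Fgfr1* passed at -0.14 (limma adjusted p = 0.0288, range 0.0288 to 0.253). Leaving out each sample in turn gave *Fgf7* differences from -0.21 to 0.041, with the sign turned without mesenchyme 3 (0.041), and it was not analysed where dim genes were left out. With the array as a block, which pairs the samples, the 10 genes kept 5 calls towards the epithelium and 3 towards the mesenchyme, while calls over all genes numbered 5035 and 5877, and those over the other pathway genes 26 and 23. The block ended the call of *Fgf12* (limma adjusted p = 0.0533) and brought in *Ptbp1* (0.0219) and *Ptbp2* (0.00301). It changed no other call among the 10 genes and the 25 pathway genes named for their size of difference or as exon choice regulators. Over all the pathway lists the counts were 20 and 21 without the block, so calls outside these 25 genes changed too. The trended and robust fit also brought in *Ptbp1* (0.0498) and *Ptbp2* (0.0206), and leaving out dim genes brought in *Ptbp2* (0.0415). With the other choice of brightest spot *Spry4* lost its call at -0.33 (limma adjusted p = 0.0658). With the mean over all spots *Gab1* turned to 0.62 (limma adjusted p = 0.00236) and *Ptbp2* to -0.0021, the calls of *Rbfox2* (-0.11, adjusted p = 0.282), *Sos1* (0.16, 0.242) and *Fgf12* (-0.24, 0.0916) were lost, and *Ptbp1* passed at 0.23 (0.00348). The cause was not tested. Over their alternatives the limma adjusted p ranged from 0.00348 to 0.219 for *Ptbp1*, from 0.00301 to 0.984 for *Ptbp2*, from 0.0202 to 0.0916 for *Fgf12*, from 0.000678 to 0.242 for *Sos1*, from 4.21e-05 to 0.282 for *Rbfox2*, from 9.46e-06 to 0.00236 for *Gab1* and from 0.000259 to 0.0658 for *Spry4*. Leaving out 1 sample gave 3649 to 3870 genes towards the epithelium and 4311 to 4570 towards the mesenchyme. Low signal limits *Fgf7*, *Fgf1* and *Fgf10* in the epithelium.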

Other observations

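The genes nearest in pattern to *Fgf10* and *Fgfr2* were found by the root mean square difference of their log2 signals over the 8 samples, after the mean of each gene was subtracted. For *Fgf10* they were *Wt1* (0.136), which encodes a transcription factor of the mesothelium, *Asz1* (0.146), a germ cell gene, and *Gimap5* (0.156), known from lymphocytes, with differences between epithelium and mesenchyme of -4.03, -4.23 and -4.30. For *Fgfr2* they were *Lgi2* (0.0640), *Lmo1* (0.0647), which encodes a LIM domain protein, and *Slc39a4* (0.0696), a zinc transporter gene, with differences of 1.29, 1.27 and 1.33. This likeness rests mostly on the difference between the tissues, which many genes share.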
